A study of Mus musculus with 14 samples.

Results

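The genes described here encode the working parts of the lysosome: the acid hydrolases and their activator proteins, the proteins of its membrane, the subunits of the vacuolar proton pump (V-ATPase), and the 3 transcription factors Tfeb, Tfe3 and Mitf that are known to control many of them. They were taken from a list of 49 symbols, each represented by the probe set that the array annotation assigns to that gene alone and that had the highest mean over the arrays. Of the 49 symbols, 46 had such a probe set, out of 18193 genes on the array, and all 46 were bright enough to be tested among 12172 genes. They comprise 24 hydrolases and activators, 7 membrane proteins, 12 pump subunits and the 3 regulators. Cd63 and Atp6v0c had no single-gene probe set and were not analysed here, and Limp2 is another name of Scarb2, which is included.

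The data are log2 expression values from 14 Affymetrix mouse arrays of dendritic cells grown from BALB/c bone marrow progenitors with recombinant granulocyte-macrophage colony-stimulating factor for 8 days, fed on days 3 and 6. Each of 7 groups has 2 arrays, 1 from each of 2 independent experiments, so replicate numbers 1 and 2 stand for experiments 1 and 2. All cultures first received 1 h of pre-treatment: the solvent DMSO (0.01%), 5 µM CLIK148, an inhibitor of cathepsin L, or 5 µM CA074Me, an inhibitor of cathepsin B. The 3 unstimulated groups are DMSO, CLIK148 and CA074Me. The 4 stimulated groups are DMSO plus CpG, CLIK148 plus CpG (CpG at 25 µg/mL, labelled pro-Th1), DMSO plus TNF-alpha and CA074Me plus TNF-alpha (500 U/mL, labelled pro-Th2). CLIK148 with TNF-alpha and CA074Me with CpG were not analysed here, and no label used here states how long a stimulus acted before RNA was taken.

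Lysosomal hydrolases break down glycosaminoglycans, sphingolipids, glycoproteins, glycogen, lipids and proteins, and they work at the acid pH that the V-ATPase maintains by pumping protons into the lysosome. The pump has a peripheral V1 sector, which splits ATP, and a V0 sector in the membrane, through which protons pass. In dendritic cells lysosomal acidity and proteolysis are known to be regulated during maturation, because they set how fast internalised antigen is degraded or kept for presentation. TFEB, TFE3 and MITF are basic helix-loop-helix leucine zipper factors that bind the CLEAR element, an extended E-box found near the start of many lysosomal genes.

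The E-box core and its extension were searched in RefSeq promoters (GRCm38.p6, 250 bases before to 50 bases after a gene's start), since these letters are what the 3 regulators are known to bind. Both motifs, CACGTG and TCACGTGA, read the same on both strands, and each TCACGTGA contains a CACGTG. Of the 46 genes, 40 had a promoter in the table. CACGTG was present for 12 of the 40 genes, beside 8.09% of all 27025 symbols in the table and 7.15% of the 32851 promoters. These were the membrane protein genes Lamp1, Mcoln1 and Clcn7, the hydrolase genes Glb1, Naglu, Gaa, Sgsh, Arsa and Gla, and the pump genes Atp6v0b, Atp6v0d1 and Atp6v1a. TCACGTGA was present for 5 of the 40 genes, beside 1.12% of all symbols and 0.974% of promoters. The stretches around it are shown 5′ to 3′ on the gene's strand, with TCACGTGA in capitals. They lie at chr17:25133337-25133410 on the plus strand for Clcn7, chr8:3500413-3500538 on the plus strand for Mcoln1, chrX:134601133-134601255 on the minus strand for Gla, chr8:105566045-105566128 on the minus strand for Atp6v0d1 and chr16:44139324-44139451 on the minus strand for Atp6v1a.
Clcn7: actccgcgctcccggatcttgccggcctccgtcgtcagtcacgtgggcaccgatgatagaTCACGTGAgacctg
Mcoln1: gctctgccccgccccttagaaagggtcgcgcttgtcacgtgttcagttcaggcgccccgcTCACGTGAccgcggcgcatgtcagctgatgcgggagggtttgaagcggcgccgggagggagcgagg
Gla: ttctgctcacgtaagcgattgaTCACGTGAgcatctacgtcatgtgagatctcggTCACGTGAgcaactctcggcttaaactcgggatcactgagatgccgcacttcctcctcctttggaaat
Atp6v0d1: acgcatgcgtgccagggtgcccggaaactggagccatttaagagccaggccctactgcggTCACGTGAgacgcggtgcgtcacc
Atp6v1a: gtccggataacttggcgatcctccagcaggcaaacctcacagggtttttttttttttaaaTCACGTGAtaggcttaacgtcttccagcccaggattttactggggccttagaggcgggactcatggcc
Counted from the start in the table, the motif begins at base 7 in Clcn7, -46 in Mcoln1, -4 in Atp6v0d1 and -132 in Atp6v1a, and Gla carries 2 copies, the first from base -228 and the second ending at base -188. The start used for Atp6v1a lies inside the outermost bounds of its gene. A match is a description of the letters and no measure of binding.

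The cultures carried the defining markers of dendritic cells on every array: Itgax (CD11c), the class II genes H2-Aa, H2-Ab1 and Cd74, Zbtb46 and Ccr7 were all above the median of all values, and all 11 listed dendritic markers were tested. Markers of other myeloid cells were bright as well, with 10 of 12 macrophage and monocyte markers (Csf1r and Adgre1 among them), 8 of 10 granulocyte markers (S100a8 and S100a9 among them) and 5 of 6 mast cell and basophil markers on the array and tested. Of the osteoclast markers Ctsk, Dcstamp, Mmp9 and Nfatc1 were bright enough to test, Calcr, Ocstamp and Oscar were too dim, and none of the erythroid and stromal markers on the array was bright enough. In these bulk cultures fewer cells of a type and less RNA per cell cannot be told apart. Replicate arrays of a group correlated over the tested genes with r from 0.961 (DMSO plus CpG) to 0.985 (CLIK148), and no pair held identical values. Arrays of the same number are paired by experiment. Differences below are in mean log2 value, treated minus control, from limma fitted to all 14 arrays without the experiment as a term, and the value after ± is the standard error (SE) of the difference with n = 2 arrays per group. A gene is called at a Benjamini-Hochberg adjusted p under 0.05 over all genes tested. Adjusted p values from the model with the experiment as a block are given beside these, since the block altered the calls. Values of a group are given as experiment 1 and experiment 2.

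Cells given CpG after solvent were compared with cells given DMSO alone. Hydrolase transcripts were mostly lower with CpG, while 9 of 12 pump subunits had a mean difference above 0 and none of the 12 was called. Of the 24 hydrolases and activators, 21 had a difference below 0 and 16 were lower in both experiments, with a median difference of -0.27 log2. The medians were -0.09 for the 7 membrane proteins, 0.10 for the 12 pump subunits, 0.05 for the 3 regulators and -0.05 for all genes tested, of which 60.6% lay below 0. Of the pump subunits 5 were higher and 3 lower in both experiments, and their median was -0.01 in experiment 1 and 0.12 in experiment 2. Averaged per array, the mean log2 value of the hydrolases was 11.09 and 11.01 in DMSO in experiments 1 and 2 and 10.62 and 10.82 with CpG, whereas that of the pump subunits was 11.94 and 11.71 in DMSO and 11.86 and 11.80 with CpG. Hydrolases were lower without overlap between the groups in 15 of 24 cases, beside 26.5% of all genes tested, and pump subunits higher without overlap in 5 of 12, beside 16.6% of all genes.

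**Figure D1:**
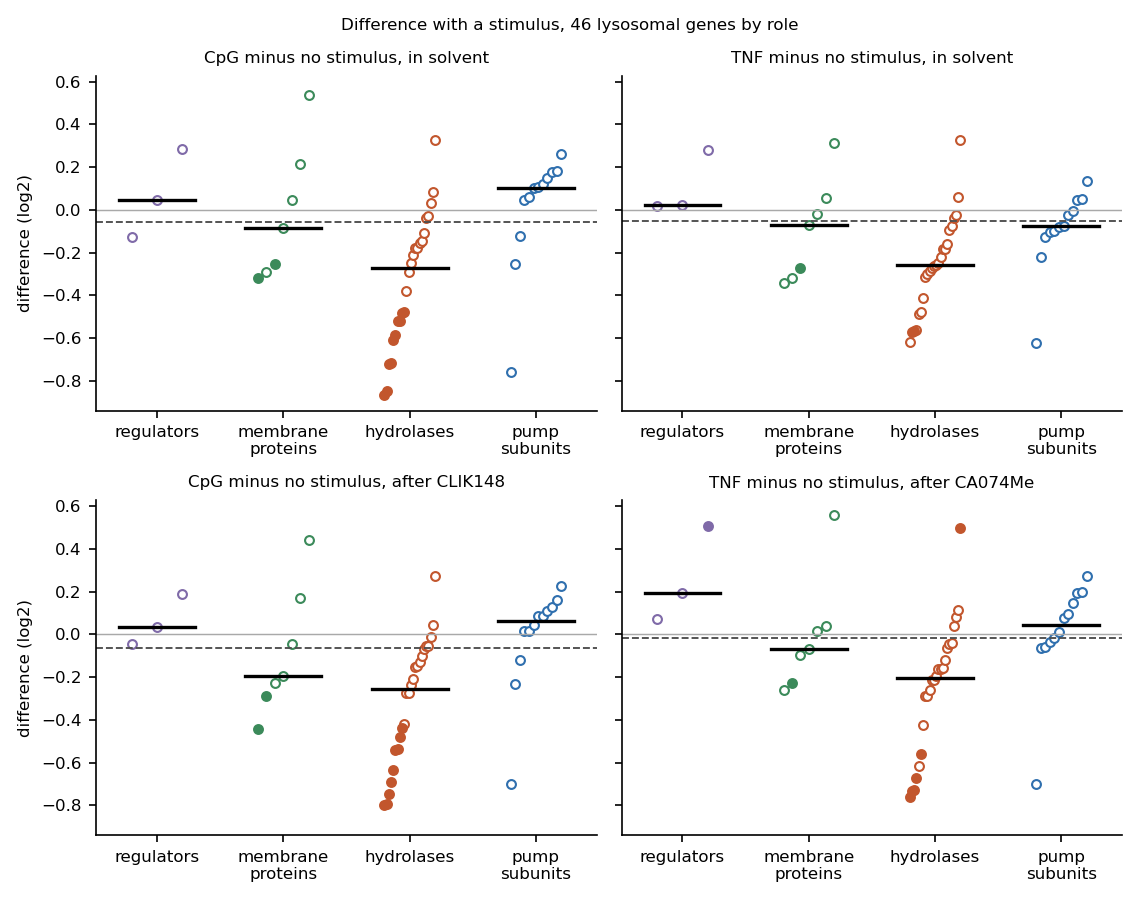
Each point is 1 of the 46 genes, and the vertical axis is its difference in log2 expression with a stimulus, mean of 2 experiments, in 4 panels for the 4 stimulus comparisons. Filled points had an adjusted p under 0.05 in limma with the experiment as a block, black bars are the medians of each role and the dashed line is the median of all genes tested. With CpG in solvent the hydrolase median lies at -0.27 and the pump median at 0.10.

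In the fit without the experiment 1 of the 46 genes was called with CpG, beside 1.92% of all genes tested, and it was lower. With the experiment as a block 12 were called and all were lower, beside 19.9% of all genes called in either direction and 13.7% called lower. The 12 are 10 hydrolases or activators (Gusb, Sgsh, Arsb, Gm2a, Asah1, Smpd1, Man2b1, Manba, Fuca1 and Ppt1) and 2 membrane proteins (Ostm1 and Cd68). No pump subunit and no regulator was called, and none of the 46 genes rose in either fit.

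Some values that describe the cultures and the RNA moved with the stimuli, and their part in the results was not tested. The 10 tested macrophage and monocyte markers had a mean log2 value of 11.23 to 11.42 in DMSO, 11.01 to 11.21 in DMSO plus CpG, 11.02 to 11.07 in DMSO plus TNF-alpha, 10.90 to 11.16 in CLIK148 plus CpG and 10.94 to 11.04 in CA074Me plus TNF-alpha. With the block 4 of the 10 fell with CpG in solvent (Csf1r, C1qa, C1qc and Apoe) and 5 with CpG after CLIK148, beside 13.7% and 13.0% of all genes called lower, and 0 were called in either TNF-alpha comparison. Other markers of this list were higher with CpG in solvent. Vcam1 was at 7.89 and 7.83 in DMSO and 9.72 and 8.22 with CpG, and Cd14 at 13.55 and 13.84 against 14.19 and 13.86. Fcgr1 and Mertk were higher in experiment 1 and lower in experiment 2. The 11 dendritic markers had a mean of 11.70 to 11.84 in DMSO, 11.36 to 11.55 with CpG and 11.43 to 11.57 with TNF-alpha, and with CpG Ccr7 rose while Clec10a, Mgl2 and Cd209a fell with the block. With TNF-alpha in solvent 2 of the 11 fell with the block, Clec10a and Mgl2, beside 1.97% of all genes, and after CLIK148 or CA074Me 1 rose and 3 fell with each stimulus. The osteoclast markers, 4 of 7 tested, had a mean over all 7 of 8.76 to 9.09 in DMSO. It was 8.60 to 8.84 with CpG, and Nfatc1 and Dcstamp fell with CpG with the block. With TNF-alpha in solvent the mean was lower than in DMSO in each experiment, but the groups overlapped (8.71 against 8.76 in experiment 2). Of the 4 tested, 3 were lower with TNF-alpha in both experiments. Mmp9 was higher in both, at 10.65 and 10.06 in DMSO and 11.40 and 10.09 with TNF-alpha. For the 5 mast cell and basophil markers the mean was 9.60 and 9.62 in DMSO in experiments 1 and 2. It was 10.32 and 9.62 with CpG, higher in experiment 1 only, and 10.20 and 9.69 with TNF-alpha. Of the RNA controls, the difference between the 3' and 5' probe sets of Actb was 0.265 and 0.273 log2 in DMSO, 0.184 and 0.205 with CpG, 0.249 and 0.248 with TNF-alpha, 0.229 and 0.268 in CLIK148 plus CpG and 0.232 and 0.241 in CA074Me plus TNF-alpha. The same difference for Gapdh was -0.060 and -0.002 in DMSO, -0.035 and 0.007 with CpG and -0.034 and -0.019 with TNF-alpha. For Gapdh both stimulated groups overlapped with DMSO.

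Gusb encodes beta-glucuronidase, which removes glucuronic acid from the ends of glycosaminoglycan chains. Its log2 values were 12.56 and 12.43 in DMSO in experiments 1 and 2, and 11.58 and 11.98 with CpG. Both CpG arrays lay below both DMSO arrays, and the widest gap was in experiment 1. Gusb fell by 0.72 log2 ± 0.14 (SE, n = 2 arrays per group; limma adjusted p = 0.045, and 0.012 with the block), a level 1.64-fold lower.

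All 7 listed enzymes of glycosaminoglycan breakdown lay below 0, with a median of -0.38. Sgsh, the sulphamidase that cleaves N-linked sulphate from heparan sulphate, was at 9.05 and 9.11 in DMSO and at 7.98 and 8.45 with CpG. The groups did not overlap, and the difference was -0.87 ± 0.18 (limma adjusted p = 0.0512, and 0.0075 with the block). With the probe sets of a gene averaged it was -0.42 (0.0167 with the block). Arsb, a sulphatase acting on dermatan and chondroitin sulphate, was at 10.72 and 10.43 in DMSO and at 10.12 and 9.82 with CpG, again without overlap and with nearly the same difference in each experiment (-0.61 and -0.61). Its mean difference was -0.61 ± 0.19 (adjusted p = 0.142, and 0.00514 with the block), and -0.25 with its probe sets averaged (0.0285 with the block). Naglu, the heparan sulphate N-acetylglucosaminidase, had a difference of -0.38 ± 0.13 that was not called in either fit (adjusted p = 0.182 and 0.0641). Galns, Idua and Ids, which act on keratan sulphate, on iduronic acid residues and on sulphated iduronic acid, differed by -0.25, -0.16 and -0.15 and were not called. The full log2 range over the 14 arrays was 11.58 to 12.69 for Gusb, 7.92 to 9.12 for Sgsh, 9.75 to 10.79 for Arsb, 9.19 to 9.85 for Naglu, 8.54 to 9.12 for Galns, 8.64 to 9.04 for Idua and 12.20 to 12.51 for Ids.

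**Figure D2:**
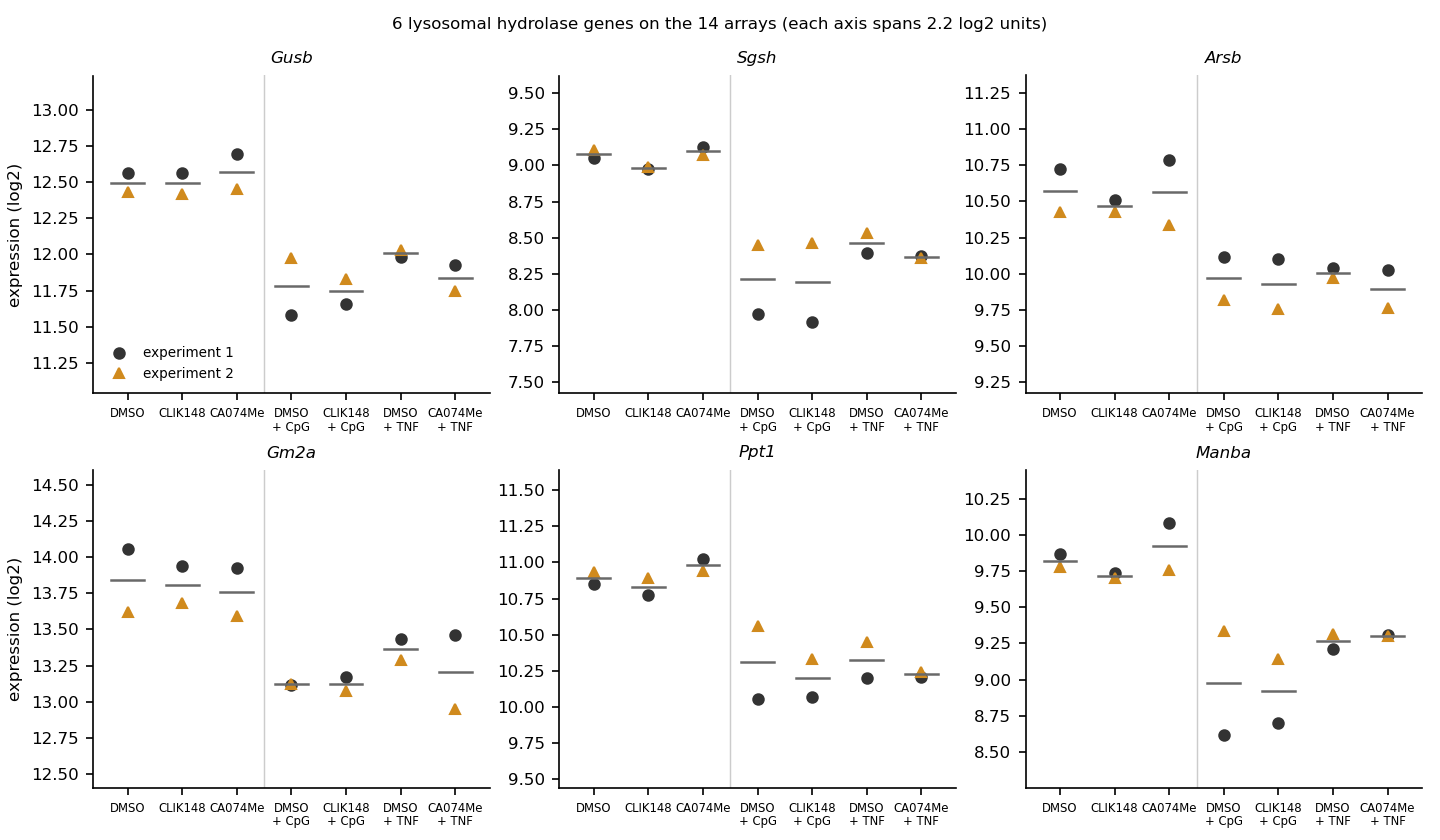
Log2 expression of 6 hydrolase and activator genes on the 14 arrays, with circles for experiment 1, triangles for experiment 2 and a bar at each group's mean. To the right of the vertical line are the 4 stimulated groups, which in these 6 genes lie below all 6 unstimulated arrays (Gusb: highest stimulated array 12.03, lowest unstimulated array 12.42).

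Among proteins of sphingolipid and ganglioside breakdown, Gm2a, the activator that presents ganglioside GM2 to beta-hexosaminidase, was at 14.06 and 13.62 in DMSO and at 13.12 and 13.12 with CpG. Both CpG values were lower than both DMSO values, and the difference was -0.72 ± 0.20 (limma adjusted p = 0.108, and 0.00615 with the block). Asah1, acid ceramidase, was at 12.28 and 12.08 in DMSO and at 11.61 and 11.79 with CpG, also without overlap, and differed by -0.48 ± 0.12 (adjusted p = 0.0767, and 0.0188 with the block). Smpd1, acid sphingomyelinase, was at 10.06 and 10.20 in DMSO and at 9.31 and 9.99 with CpG, where most of the difference came from experiment 1. It differed by -0.48 ± 0.25 (adjusted p = 0.34, and 0.0425 with the block). With its probe sets averaged the difference was -0.30 and was not called (0.0626 with the block). The other 6 of the 9 were not called in either fit: Hexa, the alpha subunit of beta-hexosaminidase, differed by -0.29, the sulphatide enzyme Arsa by -0.21, the galactosidases Gla and Glb1 by -0.18 and -0.11, the saposin precursor Psap by -0.03 and the sialidase Neu1 by 0.08. Over the 14 arrays Gm2a ranged from 12.95 to 14.06, Asah1 from 11.61 to 12.28, Smpd1 from 9.31 to 10.25, Hexa from 13.13 to 13.70, Arsa from 9.65 to 10.19, Gla from 9.90 to 10.52, Glb1 from 10.04 to 10.65, Psap from 14.27 to 14.85 and Neu1 from 9.51 to 9.94 log2.

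The mannosidases and the fucosidase, which trim the sugars of glycoproteins, were all called with the block. Manba, beta-mannosidase, was at 9.87 and 9.78 in DMSO and at 8.62 and 9.34 with CpG. The groups did not overlap, and the difference was -0.85 ± 0.22, with -1.25 and -0.44 in experiments 1 and 2 (limma adjusted p = 0.0969, and 0.0266 with the block). Man2b1, the lysosomal alpha-mannosidase, was at 13.62 and 13.33 against 12.90 and 13.01 in the same order, a difference of -0.52 ± 0.18 (adjusted p = 0.171, and 0.0233 with the block). Fuca1, alpha-fucosidase, was at 13.04 and 12.90 against 12.23 and 12.66, a difference of -0.52 ± 0.15 (adjusted p = 0.116, and 0.0276 with the block), and neither gene's groups overlapped. Gaa, the acid alpha-glucosidase that degrades glycogen, differed by 0.03 and was not called. The ranges over the 14 arrays were 8.62 to 10.08 for Manba, 12.80 to 13.63 for Man2b1, 12.23 to 13.04 for Fuca1 and 9.04 to 9.88 for Gaa.

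Of the enzymes acting on proteins and phosphate esters, Ppt1, which removes palmitate from proteins, was at 10.85 and 10.93 in DMSO and at 10.05 and 10.56 with CpG, without overlap. The difference was -0.58 ± 0.16 (limma adjusted p = 0.111, and 0.0142 with the block), and -0.23 with its probe sets averaged (0.0279 with the block). Acp2, lysosomal acid phosphatase, lay in the opposite direction, at 10.02 and 9.74 in DMSO and 10.51 and 9.92 with CpG, but its groups overlapped and it was not called (difference 0.33 ± 0.32, adjusted p = 0.618). The tripeptidyl peptidase Tpp1 and the tartrate-resistant acid phosphatase Acp5 differed by -0.18 and -0.04 and were not called. The ranges were 10.05 to 11.03 for Ppt1, 9.72 to 10.60 for Acp2, 11.94 to 12.32 for Tpp1 and 9.03 to 9.33 for Acp5.

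The membrane proteins lay on both sides of 0 with CpG, 4 of 7 below it. Ostm1, the beta subunit of the chloride-proton exchanger ClC-7, was at 11.13 and 10.95 in DMSO and at 10.83 and 10.75 with CpG, and fell only with the block (difference -0.25 ± 0.11; limma adjusted p = 0.282, and 0.0225 with the block). Cd68, a LAMP-family glycoprotein of macrophages and dendritic cells, was at 12.40 and 11.71 against 11.90 and 11.58, lower in each experiment although the groups overlapped (difference -0.32 ± 0.35; adjusted p = 0.664, and 0.0438 with the block). Clcn7, the exchanger itself, was at 9.97 and 9.50 in DMSO and 10.84 and 9.70 with CpG. It was higher by 0.87 log2 in experiment 1 and by 0.20 in experiment 2, and was not called (difference 0.54 ± 0.52, adjusted p = 0.614, and 0.104 with the block). The abundant membrane glycoproteins Lamp1 and Lamp2 differed by 0.05 and 0.21, the glucocerebrosidase receptor Scarb2 by -0.09 and the cation channel Mcoln1 by -0.29. Ranges over the 14 arrays were 10.65 to 11.13 for Ostm1, 11.36 to 12.42 for Cd68, 9.50 to 10.84 for Clcn7, 13.57 to 13.87 for Lamp1, 13.29 to 13.87 for Lamp2, 11.51 to 12.06 for Scarb2 and 9.38 to 10.02 for Mcoln1.

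The 6 listed subunits of the V1 sector all had differences above 0 with CpG, from 0.05 to 0.26 log2, and none was called. Atp6v1h, a regulatory subunit of the stalk, had the largest of them: it was at 11.00 and 10.93 in DMSO and at 11.37 and 11.09 with CpG, a difference of 0.26 ± 0.13 (limma adjusted p = 0.34, and 0.0662 with the block). The catalytic subunit Atp6v1a differed by 0.06, its nucleotide-binding partner Atp6v1b2 by 0.05, and the stalk and rotor subunits Atp6v1c1, Atp6v1d and Atp6v1e1 by 0.18, 0.18 and 0.11. The tested V1 subunits outside the list had lower means with CpG. Atp6v1f was at 12.91 and 12.91 in DMSO and at 12.85 and 12.91 with CpG. Atp6v1g1 was at 13.47 and 13.50 against 13.50 and 13.42, and Atp6v1g2 at 7.70 and 7.76 against 7.47 and 7.80. In the V0 sector, Atp6v0a1, Atp6v0b and Atp6v0d1 differed by 0.15, 0.12 and 0.10. Atp6v0d2, the isoform of the d subunit known from osteoclasts and macrophages, went the other way. It was at 11.09 and 9.79 in DMSO and at 9.92 and 9.46 with CpG, lower in each experiment, but the DMSO array of experiment 2 lay below the CpG array of experiment 1. Its difference of -0.76 ± 0.64 was not called (adjusted p = 0.564, and 0.0528 with the block). The accessory proteins Atp6ap1 and Atp6ap2 differed by -0.25 and -0.12, both without overlap and neither called.

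The pump genes ranged over the 14 arrays from 11.87 to 12.24 log2 for Atp6v1a, 11.55 to 12.24 for Atp6v1b2, 12.43 to 12.80 for Atp6v1c1, 11.55 to 11.84 for Atp6v1d, 11.99 to 12.49 for Atp6v1e1 and 10.93 to 11.40 for Atp6v1h in the V1 sector. In the V0 sector the ranges were 8.85 to 9.32 for Atp6v0a1, 11.26 to 12.08 for Atp6v0b, 12.85 to 13.19 for Atp6v0d1 and 9.33 to 11.27 for Atp6v0d2, the widest of the pump. Atp6ap1 lay between 12.59 and 13.06 and Atp6ap2 between 13.55 and 13.79. Of the regulators, Mitf was at 11.00 and 9.84 in DMSO and 11.42 and 9.99 with CpG, and Tfeb at 8.80 and 8.64 against 8.48 and 8.71. The differences were 0.28 ± 0.83 and -0.13 ± 0.12, and neither was called (limma adjusted p = 0.89 and 0.598, and 0.115 and 0.427 with the block). The groups overlapped in both, Tfeb being lower with CpG in experiment 1 and higher in experiment 2. Tfe3 differed by 0.05. Over the 14 arrays Mitf spanned 9.84 to 11.65, Tfeb 8.48 to 8.89 and Tfe3 10.15 to 10.80.

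**Figure D3:**
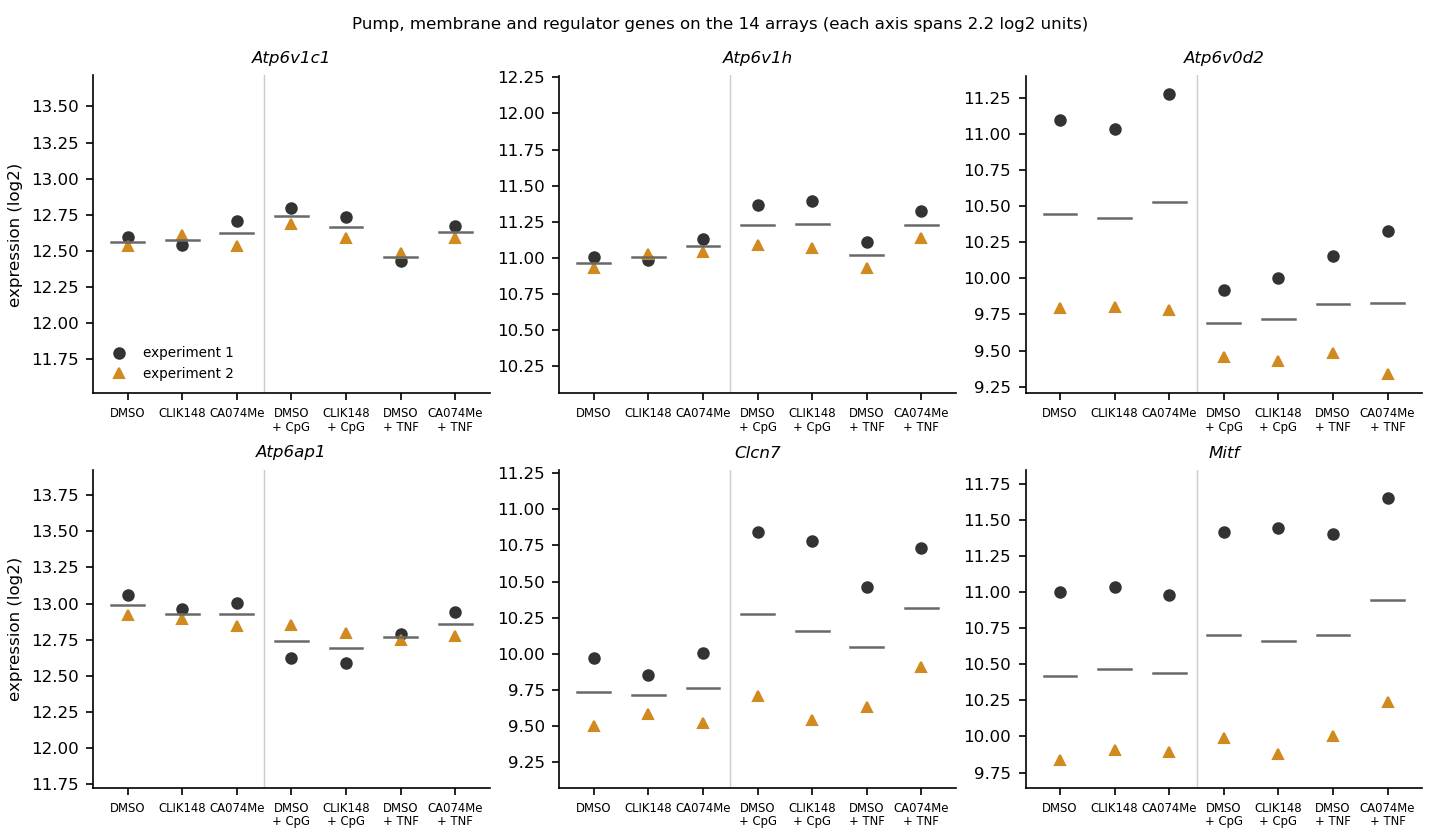
Log2 expression of 3 pump subunits, the accessory protein gene Atp6ap1, the exchanger gene Clcn7 and the regulator gene Mitf on the 14 arrays, with circles for experiment 1, triangles for experiment 2 and a bar at each group's mean. Atp6v0d2, Clcn7 and Mitf are higher in experiment 1 in all 7 groups, Mitf by 1.08 to 1.56 log2.

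These CpG calls depended on single arrays. Without the DMSO array of experiment 1 none of the 46 genes was called in the fit with the block, beside 2.57% of all genes tested. The count was 5 without the DMSO array of experiment 2, beside 7.84% of all genes, and 2 without the CpG array of experiment 1, beside 4.12%. Without the CpG array of experiment 2 it was 25, of which 21 were lower and 4 higher, beside 39.2% of all genes. Without the block, Gusb missed the threshold when any of the compared DMSO and CpG arrays, other than the CpG array of experiment 2, was left out. Its difference was -0.65 without the DMSO array of experiment 1 and -0.78 without that of experiment 2. It was -0.52 without the CpG array of experiment 1 and -0.91 without that of experiment 2. Of 29 genes with more than 1 probe set bright enough to test, 23 had the same sign with CpG in all their probe sets. The 6 with mixed signs were Atp6v0a1, Gaa, Ids, Idua, Lamp2 and Neu1, none of them called. The signs were the same in 21 of 29 with TNF-alpha in solvent, in 25 with CpG after CLIK148 and in 24 with TNF-alpha after CA074Me.

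None of the 5 genes with TCACGTGA was among the 12 called with the block, beside 19.9% of all genes tested. Their CpG differences were 0.54 for Clcn7, -0.29 for Mcoln1, -0.18 for Gla, 0.10 for Atp6v0d1 and 0.06 for Atp6v1a, on both sides of 0. Of the 12 called, 11 had a promoter in the table, and 1 of these, Sgsh, held CACGTG, beside 8.09% of all symbols. Counts this small do not show whether called genes hold either motif more or less often than other genes. No match says only that these letters are not in that window.

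Cells given TNF-alpha after solvent were compared with the same DMSO arrays. Hydrolases lay mostly below 0 here too, whereas 9 of 12 pump subunits lay below 0 as well. Of the 24 hydrolases 22 had a difference below 0 and 21 were lower in both experiments, with a median of -0.26 log2, beside -0.05 for all genes tested. The median was -0.08 for the pump subunits, -0.07 for the membrane proteins and 0.02 for the regulators. Of the hydrolases, 17 of 24 were lower without overlap between groups, beside 26.2% of all genes. Limma called 0 of the 46 genes without the block, beside 0.115% of all genes, although 10 had an unadjusted p under 0.05 (17 with the block), beside 7.22% of all genes (20.5% with the block). With the block it called 3, all lower, beside 3.11% of all genes in either direction and 1.97% lower. Because both stimulus comparisons in solvent share their controls, their values stand side by side and were not correlated. After cyclic loess normalisation of the arrays 31 of the 46 genes lay below 0 with TNF-alpha instead of 36, and 7 of the 12 pump subunits.

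The 3 genes that fell with TNF-alpha in the fit with the block were Arsb, Ppt1 and Ostm1. Arsb was at 10.72 and 10.43 in DMSO and 10.04 and 9.97 with TNF-alpha, Ppt1 at 10.85 and 10.93 against 10.20 and 10.45, and Ostm1 at 11.13 and 10.95 against 10.88 and 10.65. In each of them both TNF-alpha arrays lay below both DMSO arrays. The differences were -0.57 ± 0.19, -0.57 ± 0.16 and -0.27 ± 0.11, with limma adjusted p of 0.467, 0.383 and 0.651 without the block and 0.0184, 0.0451 and 0.0476 with it. With the block the count was 0 without either DMSO array, beside 0% of all genes, 0 without the TNF-alpha array of experiment 1, beside 0.0164%, and 1 without that of experiment 2, beside 1.63%. With the probe sets of a gene averaged, Arsb and Ppt1 differed by -0.24 and -0.22 and were not called (0.0852 and 0.0738 with the block), while Ostm1 was.

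The next genes by p in the fit with the block were not called. Sgsh was at 8.39 and 8.53 with TNF-alpha, a difference of -0.62 ± 0.18 (limma adjusted p = 0.40, and 0.0649 with the block). Gm2a was at 13.44 and 13.29, a difference of -0.48 ± 0.20 (0.651 and 0.0679), and Gusb at 11.98 and 12.03, a difference of -0.49 ± 0.14 (0.40 and 0.10). In all 3, both TNF-alpha arrays were lower than both DMSO arrays. The beta-galactosidase gene Glb1 was at 10.41 and 10.60 in DMSO and 10.04 and 10.34 with TNF-alpha, also without overlap, and differed by -0.31 ± 0.19 (0.802 and 0.0978).

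Of the membrane proteins, Cd68 was at 11.93 and 11.49 with TNF-alpha, lower in each experiment but overlapping with DMSO (-0.34 ± 0.35; limma adjusted p = 0.864, and 0.0851 with the block). The calcium-permeable channel gene Mcoln1 was at 10.02 and 9.74 in DMSO and 9.54 and 9.58 with TNF-alpha, without overlap (-0.32 ± 0.14; 0.668 and 0.229). Neither was called. Of the pump, Atp6v0d2 was at 10.16 and 9.49 (-0.62 ± 0.64; 0.865 and 0.182), again overlapping with DMSO. Atp6ap1 was at 13.06 and 12.92 in DMSO and 12.79 and 12.75 with TNF-alpha (-0.22 ± 0.11; 0.768 and 0.298), without overlap, and none of the 12 subunits was called. Mitf was at 11.40 and 10.00 and Tfeb at 8.79 and 8.69, differences of 0.28 ± 0.83 and 0.02 ± 0.12 that were not called (0.22 and 0.923 with the block).

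CpG and TNF-alpha in solvent were also set directly against each other. None of the 46 genes was called by limma (0 of 46), beside 0.00822% of all genes without the block and 0.435% with it, while 1 gene had an unadjusted p under 0.05 without the block, beside 6.35% of all genes, and 6 with it, beside 15.7%. The largest pump difference was that of Atp6v1c1, a subunit linking the V1 stalk to the membrane sector, which was at 12.80 and 12.69 with CpG and 12.43 and 12.49 with TNF-alpha. Both CpG arrays were higher, by 0.29 ± 0.09 log2 (limma adjusted p = 0.60, and 0.143 with the block). All 6 listed V1 subunits had a higher mean with CpG than with TNF-alpha, with a median difference of 0.16. Outside the list, Atp6v1f and Atp6v1g1 were lower with CpG in both experiments, and Atp6v1g2 only in experiment 1. All 7 listed glycosaminoglycan enzymes had a lower mean with CpG, with a median difference of -0.12. Ids was at 12.26 and 12.28 with CpG and at 12.44 and 12.51 with TNF-alpha, without overlap (-0.20 ± 0.09; adjusted p = 0.179 with the block). Atp6v0d1 was at 13.05 and 13.19 against 12.85 and 13.03 in that order (0.18), also without overlap and not called.

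CpG after CLIK148 was compared with CLIK148 alone, on 4 arrays that the comparison in solvent does not use. The cultures came from the same 2 experiments, and both comparisons use the same estimate of each gene's spread. Calls shared between them are therefore not independent. Hydrolases lay mostly below 0 and the listed V1 subunits above 0, as they did in solvent. Of the 24 hydrolases 22 lay below 0 and 21 were lower in both experiments, with a median of -0.26 log2, beside -0.06 for all genes, and 14 were lower without overlap, beside 32.5% of all genes. The medians were 0.06 for the pump, with all 6 listed V1 subunits above 0, -0.20 for membrane proteins and 0.03 for regulators. Limma called 0 of the 46 genes without the block, beside 0.813% of all genes, with 11 at an unadjusted p under 0.05, beside 16.6% of all genes. It called 11 with the block, all lower, beside 17.1% of all genes in either direction and 13.0% lower. All 11 of these, and 11 of the 12 of the comparison in solvent, were shared, the other being Smpd1.

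Gm2a was at 13.94 and 13.68 with CLIK148 alone and 13.17 and 13.07 with CpG added, Arsb at 10.51 and 10.42 against 10.10 and 9.75, and Sgsh at 8.97 and 8.99 against 7.92 and 8.46. None of these groups overlapped. The differences were -0.69 ± 0.20, -0.54 ± 0.19 and -0.79 ± 0.18, with limma adjusted p of 0.139, 0.209 and 0.086 without the block and 0.00873, 0.00972 and 0.0126 with it. Gusb was at 12.56 and 12.42 against 11.66 and 11.83 (-0.75 ± 0.14; adjusted p = 0.0601, and 0.0126 with the block). Ppt1 was at 10.77 and 10.89 against 10.07 and 10.33 (-0.63 ± 0.16; 0.11, and 0.0132 with the block). Fuca1 was at 12.94 and 12.96 against 12.25 and 12.57 (-0.54 ± 0.15; 0.128, and 0.0273 with the block). For these 3 genes too, both CpG arrays were the lower ones. The membrane protein gene Ostm1 was at 11.07 and 10.96 against 10.79 and 10.67 without overlap (-0.29 ± 0.11; 0.0169 with the block), and Cd68 at 12.32 and 11.76 against 11.84 and 11.36 (-0.44 ± 0.35; 0.0171), lower in each experiment with overlap between groups. With the probe sets of a gene averaged, Sgsh and Ppt1 differed by -0.40 and -0.23 and were still called with the block, whereas Arsb differed by -0.17 and was not (0.0897). After cyclic loess Ostm1 differed by -0.19. With the block the count was 0 without the CLIK148 array of experiment 2, beside 3.15% of all genes, and 0 without the CLIK148 plus CpG array of experiment 1, beside 1.68%. It was 1 without the CLIK148 array of experiment 1, beside 1.09%, and 11 without the CLIK148 plus CpG array of experiment 2, beside 14.2%.

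**Figure D4:**
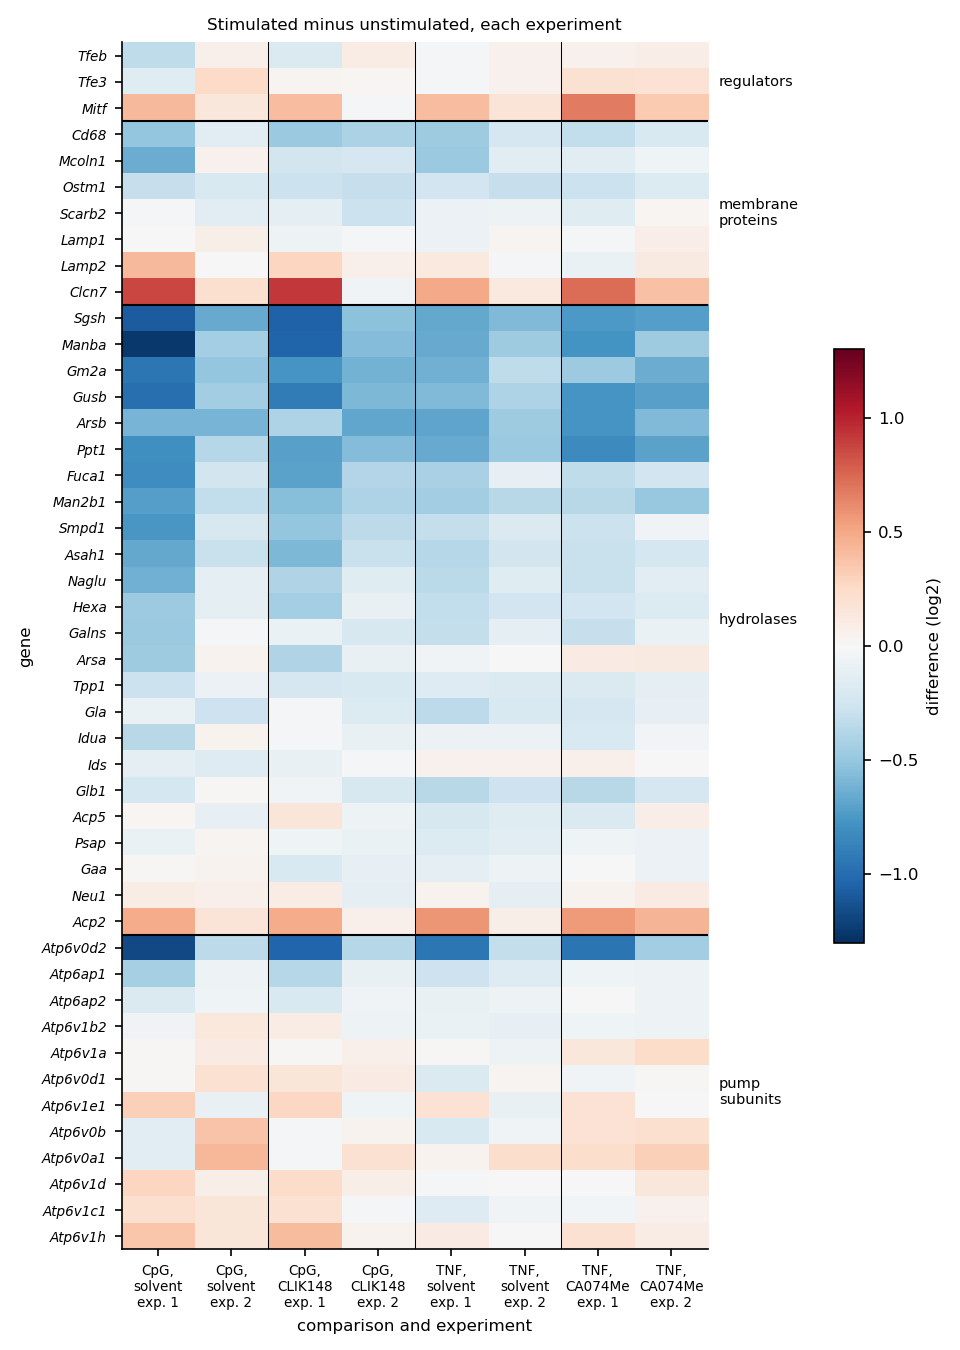
Each row is 1 of the 46 genes, grouped by role and ordered within a role by the CpG difference in solvent, and each column is the difference in log2 expression between the stimulated and the unstimulated array of 1 experiment. Blue is lower and red is higher with the stimulus. The 10 hydrolases with the lowest CpG difference in solvent are below 0 in all 8 columns, while pump rows are pale apart from Atp6v0d2. These hydrolases were picked by the CpG columns in solvent, whose DMSO arrays the TNF-alpha columns in solvent share. Clcn7, Acp2 and Atp6v0d2 are farther from 0 in experiment 1 than in experiment 2 in each of the 4 comparisons.

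TNF-alpha after CA074Me was compared with CA074Me alone. Hydrolases lay mostly below 0 here too, 20 of 24 below 0 with a median of -0.20 log2, beside -0.02 for all genes, and 15 were lower without overlap, beside 25.8% of all genes. The pump median was 0.04, that of the membrane proteins -0.07 and that of the regulators 0.19. Without the block limma called 1 of the 46 genes, Gusb, beside 1.31% of all genes. With the block it called 8, beside 11.1% of all genes, of which 6 fell, beside 6.16%, and 2 rose, beside 4.97%.

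Gusb was at 12.69 and 12.45 with CA074Me alone and 11.93 and 11.75 with TNF-alpha added. Both stimulated arrays lay below, and Gusb fell by 0.73 log2 ± 0.14 (SE, n = 2 per group; limma adjusted p = 0.0493, and 0.0136 with the block). It missed the threshold without the block when any 1 of the 4 arrays was left out (adjusted p from 0.0987 to 0.371). The others that fell with the block were Arsb, Ppt1, Sgsh, Gm2a and Ostm1. Arsb was at 10.79 and 10.33 against 10.02 and 9.76 (-0.67 ± 0.19; limma adjusted p = 0.00378 with the block), and Ppt1 at 11.03 and 10.94 against 10.20 and 10.24 (-0.76 ± 0.16; 0.00656). Sgsh was at 9.12 and 9.07 against 8.38 and 8.36 (-0.73 ± 0.18; 0.0172), Gm2a at 13.93 and 13.59 against 13.46 and 12.95 (-0.56 ± 0.20; 0.0191), and Ostm1 at 11.12 and 10.90 against 10.84 and 10.72 (-0.23 ± 0.11; 0.0433). None of these groups overlapped. With the probe sets of a gene averaged, Arsb, Ppt1 and Sgsh differed by -0.32, -0.30 and -0.35 and were still called with the block.

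The 2 that rose with the block were Acp2 and Mitf. Acp2 was at 10.00 and 9.72 with CA074Me alone and at 10.55 and 10.16 with TNF-alpha added, higher without overlap (difference 0.50 ± 0.32; limma adjusted p = 0.612, and 0.0454 with the block). Mitf was at 10.98 and 9.90 against 11.65 and 10.24, higher in each experiment although its groups overlapped (difference 0.51 ± 0.83; adjusted p = 0.886, and 0.0276 with the block). Neither rise was called with the probe sets of a gene averaged: Acp2 differed by 0.50 and Mitf by 0.31 (0.0662 and 0.221 with the block). With the block the count for this comparison was 1, a lower gene, without the CA074Me array of experiment 1 or the CA074Me plus TNF-alpha array of experiment 2, beside 1.93% of all genes each. It was 5 without the CA074Me array of experiment 2, 4 lower and 1 higher, beside 6.82%, and 5 without the CA074Me plus TNF-alpha array of experiment 1, all lower, beside 4.86%.

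Across all treatments, 11 of the 46 genes had every stimulated array (8 arrays) below every unstimulated array (6 arrays), beside 8.10% of all genes tested. They were the hydrolases Gusb, Naglu, Sgsh, Arsb, Asah1, Gm2a, Manba, Fuca1, Tpp1 and Ppt1 and the membrane protein Ostm1. For Sgsh the 6 unstimulated arrays lay between 8.97 and 9.12 log2 (median 9.06) and the 8 stimulated ones between 7.92 and 8.53 (median 8.38). For Manba they lay between 9.70 and 10.08 (median 9.77) and between 8.62 and 9.34 (median 9.26). None of the 46 genes had every stimulated array above every unstimulated one, beside 3.46% of all genes tested. These groups of arrays are those of the comparisons above, so the count adds no independent measurement.

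Each inhibitor alone was compared with DMSO. Neither was followed by a called change in any of the 46 genes, and the differences were small. With CLIK148 they ranged from -0.14 (Man2b1) to 0.07 (Gaa), and with CA074Me from -0.12 (Ids) to 0.12 (Atp6v1h). In both comparisons limma called 0 of the 46 with or without the block, beside 0% of all genes. None had an unadjusted p under 0.05, beside at most 0.542% of all genes without the block and 2.75% with it. The half-width of the 95% confidence interval had a median of 0.35 log2 over the 46 genes without the block and 0.24 with it. It ran from 0.18 to 1.87 without the block and from 0.14 to 0.53 with it. The smallest change that could be told from 0 therefore differed between genes. With 2 arrays per group a count of 0 does not show absence of an effect.

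With CLIK148, Man2b1 was at 13.62 and 13.33 in DMSO and 13.41 and 13.25 with the inhibitor, a difference of -0.14 ± 0.18, and Arsb at 10.72 and 10.43 against 10.51 and 10.42, a difference of -0.11 ± 0.19. Both genes overlapped between groups. Mcoln1 was at 10.02 and 9.74 against 9.75 and 9.75 (-0.13 ± 0.14) and Scarb2 at 11.92 and 11.73 against 11.96 and 11.79 (0.04 ± 0.17). The pump genes Atp6v0b and Atp6v1b2 were at 11.78 and 11.30 against 11.49 and 11.35 (-0.12 ± 0.26) and 12.10 and 11.66 against 11.96 and 11.62 (-0.09 ± 0.29). The regulators Tfeb and Mitf were at 8.80 and 8.64 against 8.74 and 8.57 (-0.06 ± 0.12) and 11.00 and 9.84 against 11.03 and 9.90 (0.05 ± 0.83). In each of these 6 the groups overlapped, and the lowest limma adjusted p over the 46 genes was 1.0 in both fits. Of the 24 hydrolases 22 lay below 0 with CLIK148, with a median of -0.05, and 19 of 24 did after cyclic loess. The median was -0.08 in experiment 1 and -0.01 in experiment 2.

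With CA074Me, Ids was at 12.38 and 12.45 in DMSO and 12.20 and 12.38 with the inhibitor, a difference of -0.12 ± 0.09, and Atp6v1h at 11.00 and 10.93 against 11.13 and 11.04, a difference of 0.12 ± 0.13. Neither gene overlapped between groups and neither was called. Manba was at 9.87 and 9.78 against 10.08 and 9.76 (0.10 ± 0.22), Mcoln1 at 10.02 and 9.74 against 9.88 and 9.74 (-0.07 ± 0.14) and Scarb2 at 11.92 and 11.73 against 12.06 and 11.72 (0.06 ± 0.17). Atp6v0a1, the a subunit of the V0 sector, was at 9.04 and 8.85 against 9.09 and 8.98 (0.10 ± 0.13), Tfe3 at 10.60 and 10.15 against 10.61 and 10.19 (0.02 ± 0.22) and Mitf at 11.00 and 9.84 against 10.98 and 9.90 (0.02 ± 0.83). These 6 overlapped between groups, and the lowest limma adjusted p over the 46 genes was 1.0 in both fits. The count of genes above 0 with CA074Me was 26 of 46, and 38 of 46 after cyclic loess normalisation, so no direction is given for the group. Both inhibitor comparisons share the DMSO arrays.

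**Figure D5:**
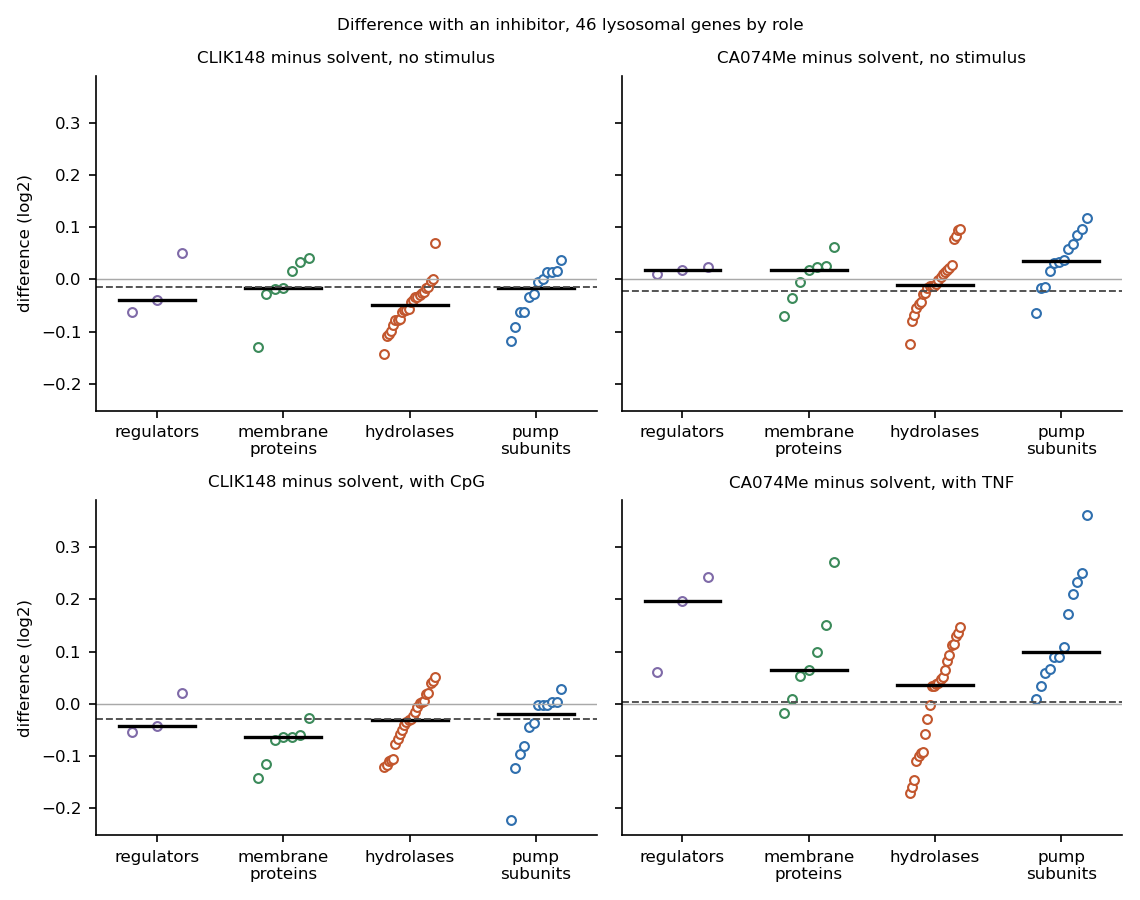
Each point is 1 of the 46 genes, and the vertical axis is its difference in log2 expression with an inhibitor, mean of 2 experiments, in 4 panels for CLIK148 and CA074Me without stimulus, CLIK148 with CpG and CA074Me with TNF-alpha. Black bars are the medians of each role, the dashed line is the median of all genes tested, and no point is filled because none had an adjusted p under 0.05 with the block. The largest difference, 0.36 for Atp6v0b, is in the panel of CA074Me with TNF-alpha.

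CLIK148 and CA074Me, both at 5 µM for 1 h, form the 1 pair of compounds that could be compared directly. The difference between them, CLIK148 minus CA074Me, ranged from -0.20 (Manba) to 0.08 (Ids) over the 46 genes. Manba was at 9.74 and 9.70 with CLIK148 and 10.08 and 9.76 with CA074Me, and the 95% interval of the difference ran from -0.71 to 0.30, or from -0.68 to 0.28 with the block. Atp6v1b2 had the smallest p with the block, at 11.96 and 11.62 against 12.24 and 11.67, with a difference of -0.16 ± 0.29 and an interval from -0.35 to 0.03 in that fit. For Gusb the interval without the block ran from -0.41 to 0.24 around -0.08. Limma called 0 of the 46 with or without the block, beside 0% of all genes, and none had an unadjusted p under 0.05, beside 0.477% of all genes without the block and 2.36% with it. This does not show that the 2 inhibitors act alike.

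With CpG present, cells pre-treated with CLIK148 differed from cells pre-treated with solvent by -0.22 (Atp6v0b) to 0.05 log2, and limma called 0 of the 46, beside 0% of all genes, with none at an unadjusted p under 0.05, beside 0.559% of all genes without the block and 1.86% with it. Atp6v0b, a proton-carrying subunit of the V0 ring, was at 11.64 and 11.68 in DMSO plus CpG and 11.48 and 11.40 in CLIK148 plus CpG, lower in both arrays but not called (-0.22 ± 0.26). Neu1, the sialidase, had the smallest p with the block, at 9.94 and 9.70 against 9.85 and 9.55 (-0.12 ± 0.17). All 7 membrane proteins lay below 0 here, with a median of -0.06, beside -0.03 for all genes tested, and 6 of the 7 did after cyclic loess. The hydrolases turned from 16 of 24 below 0 to 8 of 24 after cyclic loess, so no direction is given for them.

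With TNF-alpha present, all 12 listed pump subunits and all 3 regulators had a higher mean after CA074Me than after solvent, although none was called. The median was 0.10 log2 for the pump, 10 of 12 being higher in both experiments, 0.20 for the regulators, 0.06 for the membrane proteins and 0.04 for the hydrolases, beside 0.00 for all genes tested, of which 47.9% lay below 0. Atp6v1a, the catalytic subunit, was at 12.02 and 11.87 in DMSO plus TNF-alpha and at 12.24 and 12.16 in CA074Me plus TNF-alpha, higher without overlap by 0.25 ± 0.08 (limma adjusted p = 1.0 in both fits). Atp6v0b was at 11.58 and 11.26 against 12.08 and 11.47 (0.36 ± 0.26), with overlap. Atp6v1h was at 11.11 and 10.93 against 11.32 and 11.14 (0.21) and Atp6v1c1 at 12.43 and 12.49 against 12.67 and 12.59 (0.17), both without overlap. Tfe3 was at 10.58 and 10.21 against 10.80 and 10.38 (0.20), and Mitf at 11.40 and 10.00 against 11.65 and 10.24 (0.24), with overlap between groups in both but higher in each experiment. Limma called 0 of the 46, beside 0% of all genes without the block and 0.00822% with it, and 1 gene had an unadjusted p under 0.05 without the block, beside 0.805% of all genes, and 4 with it, beside 3.04% (Atp6v1a, Atp6v1h, Ids and Atp6v1c1, of which Ids lay below 0 at -0.15). The 12 subunits of 1 complex are not replicates of the treatment.

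Whether an inhibitor altered the response to a stimulus was tested as an interaction. For CLIK148 and CpG the interaction ranged from -0.18 (Gaa) to 0.11 log2, and for CA074Me and TNF-alpha from -0.25 (Gusb, -0.71 to 0.21 as the 95% interval) to 0.32 (Atp6v0b, -0.50 to 1.15). Atp6v1a had the smallest p of the 46 for CA074Me and TNF-alpha with the block (0.22, with an interval from -0.03 to 0.46). For both interactions limma called 0 of the 46 with or without the block, beside 0% of all genes. None had an unadjusted p under 0.05, beside at most 0.657% of all genes without the block and 2.49% with it. That Gusb passed the threshold with TNF-alpha after CA074Me and not in solvent is therefore not a shown difference between the 2 settings.

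Part of the spread in these genes followed the experiment rather than the treatment. With the 7 groups in the model, 25 of the 46 genes differed between experiments, beside 44.6% of all genes tested. Of these, 20 were lower in experiment 2, beside 12.2% of all genes called lower, and 5 were higher, beside 32.4%. Of the 7 membrane proteins 6 were called lower in experiment 2, with a median of -0.24 log2 over the 7, and Mcoln1 differed by -0.01 and was not called. Mitf had the largest gap of the 46, -1.31 (adjusted p = 2.16e-06), and was lower in experiment 2 in all 7 groups, by 1.08 to 1.56. Atp6v0d2 had -0.96, Clcn7 -0.75, Cd68 -0.54, Acp2 -0.46, Atp6v1b2 -0.45 and Psap -0.36. Higher in experiment 2 were Gaa (0.51), Smpd1 (0.32), Glb1 (0.27), Gla (0.18) and Ids (0.11). Gusb had a gap of -0.01 and was not called. Of the osteoclast markers, Ctsk, Dcstamp and Mmp9 were lower in experiment 2 as well, by 0.80, 0.71 and 0.76 log2 (limma adjusted p = 1.13e-05, 1.47e-05 and 0.000928), while Nfatc1 differed by 0.12 and was not called (0.23). Their part in the gap was not tested.

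Other lysosomal genes that are not among the 46 were counted in the same fits. Of 11 other hydrolases and cofactors tested, 9 lay below 0 with CpG in solvent, with a median of -0.40 log2, and 6 fell with the block, beside 13.7% of all genes called lower. Among them were Pla2g15, a lysosomal phospholipase, at -0.79 (limma adjusted p = 0.0199 with the block), and the heparan sulphate acetyltransferase Hgsnat at -0.56 (0.013). Of 18 other membrane proteins and transporters 13 lay below 0 and 4 fell with the block, the largest being the amino acid sensor Slc38a9 at -0.76 (0.026), the sialic acid transporter Slc17a5 at -0.59 (0.0167) and the nucleoside transporter Slc29a3 at -0.51 (0.0326). Of 7 other pump subunits 6 lay below 0, with a median of -0.04, and 1 rose and 2 fell with the block: Tcirg1, the a subunit isoform of osteoclasts and immune cells, at 0.40 (0.0355), against Atp6v0a2 at -0.64 (0.00987) and Atp6v0e2 at -0.68 (0.0212). Of 24 genes of sorting and nutrient signalling at the lysosome, the autophagy receptor Sqstm1 rose by 0.71 (adjusted p = 0.0057) and the Ragulator subunit Lamtor2 fell by 0.41 (0.045) without the block, and with it 2 rose and 4 fell, beside 19.9% of all genes called in either direction. In CpG after CLIK148 the block calls were 3 of 11 other hydrolases, 4 of 18 membrane proteins and 2 of 7 pump subunits, all lower, and 2 higher and 3 lower of the 24 sorting genes, beside 17.1% of all genes called and 13.0% called lower. In TNF-alpha after CA074Me they were 1 lower of the 11 other hydrolases, 1 higher and 2 lower of the 18 membrane proteins, 1 lower of the 7 pump subunits and 2 higher and 3 lower of the sorting genes, beside 11.1% of all genes, 6.16% lower and 4.97% higher. In that comparison Sqstm1 rose by 0.69 (0.00616 without the block). With TNF-alpha in solvent none of the first 3 lists had a gene called with the block, and 1 gene of the sorting list, Sqstm1, rose by 0.41 (0.0234), beside 3.11% of all genes called.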

How the data were processed

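Total RNA of 14 dendritic cell cultures was measured on Affymetrix mouse arrays. The deposited values are log2 expression values per probe set, made by the authors with RMA in R 3.0.1, per the submitters' processing notes. RMA gives the arrays a common distribution, so a shift shared by all genes is not visible, and intensities and hybridisation depth were not used here. The number of arrays, 2 per group, limits the precision.

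Of 45101 probe sets, 34945 have 1 gene symbol in the platform annotation, 932 several and 9160 none, and 64 are controls, which were left out. The single-gene probe set with the highest mean stood for each of 18193 genes. Genes above the overall median (7.52 log2) on at least 2 arrays, 12172 in all, were tested with limma 3.58.1 in R 4.3.3 (lmFit and eBayes, 2-sided, Benjamini-Hochberg adjustment), with the 7 groups in 1 fit, and again with the experiment as a block. The replicate numbers pair the arrays: the series' text gives 2 independent experiments, and the deviations of same-numbered arrays correlated with r from 0.455 to 0.935 over the 21 pairs of groups. Both fits were tried on simulated arrays with known shifts in the CpG group. The fit without the block was tried on arrays without a gap between experiments, so its behaviour with a gap was not tested.

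Full values are given for genes called without the block, for up to 8 genes with the smallest p with the block where fewer than 4 were called, and for the 2 genes of each role with the largest difference with CpG, TNF-alpha and each inhibitor alone. The member genes and lists were chosen with earlier results of these data known. Alternatives tried were the block, no filter, averaging the probe sets of a gene, cyclic loess, array weights, only the compared groups, and leaving out each array. Promoter sequences are from RefSeq (GRCm38.p6).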

Additional observations from a re-analysis of the deposited data

How the results depend on the processing

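Counts of the 46 genes called depended on how the experiment was treated. The replicate numbers pair the arrays, and with the replicate block the count went from 1 to 12 for CpG in solvent, from 0 to 3 for TNF-alpha in solvent, from 0 to 11 for CpG after CLIK148 and from 1 to 8 for TNF-alpha after CA074Me. It changed no other treatment comparison, all of which stayed at 0. Without the block, CpG in solvent gave 0 with no filter, beside 1.16% of all genes, and 0 with array weights, beside 0.394%. It gave 0 with only the compared groups in the fit, beside 0%, and 3 with cyclic loess, beside 2.55%. CpG after CLIK148 gave 1 with cyclic loess, beside 1.44%, and 2 with array weights, beside 1.27%. TNF-alpha after CA074Me gave 0 with no filter, beside 0.808%, and 0 with only the compared groups, beside 0%. It gave 2 with cyclic loess, beside 1.79%, and 3 with array weights, beside 3.03%. With the block and array weights, which were chosen after seeing the data, the counts were 6 for CpG in solvent, 15 for TNF-alpha in solvent and 16 for TNF-alpha after CA074Me, beside 6.38%, 15.9% and 21.8% of all genes. Averaging the probe sets of a gene gave 1 instead of 3 for TNF-alpha in solvent with the block, beside 2.93% of all genes. It moved 13 of 34 named differences by over 1.5 times, of which 8 were still called with the block. The cause of these shifts was not tested.

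Leaving out 1 array at a time gave 0 to 9 genes for CpG in solvent and 0 in all cases for the other treatment comparisons without the block. With the block it gave 0 to 25 for CpG in solvent, 0 to 1 for TNF-alpha in solvent, 0 to 11 for CpG after CLIK148 and 1 to 5 for TNF-alpha after CA074Me. Only arrays of the groups compared were left out for these counts. Of 170 differences of named genes under the alternatives that keep all arrays, 170 kept their direction. Of these, 40 passed the threshold only under the alternative and 3 no longer passed it. The block, no filter and array weights left the difference itself unchanged. A direction could therefore reverse only with probe sets averaged or with cyclic loess. The genes were named because they were called with or without the block, which is among these alternatives. After cyclic loess 20 of 24 hydrolases lay below 0 with CpG in solvent and 20 of 24 with TNF-alpha.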
